A study of Homo sapiens with 6 samples.

Results

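The 10 mRNAs described here encode heterogeneous nuclear ribonucleoproteins (hnRNPs): HNRNPA1, HNRNPA2B1, HNRNPA3, HNRNPC, HNRNPD, HNRNPF, HNRNPH1, HNRNPK, HNRNPM and HNRNPU. They were chosen by gene symbol from the 13668 protein-coding genes that carried at least 1 cDNA count in either cell line. eIF4B binding was mapped by iCLIP, in which UV light fixes the protein to RNA and the cross-linked nucleotide is read from where reverse transcription stopped. DoHH-2 cells, a line derived from diffuse large B-cell lymphoma (DLBCL), were compared with GM01953, a control B-cell line from a disease-free source. The lines are not isogenic, and each stands for its condition alone. The labels list 4 DoHH-2 replicates and 2 GM01953 replicates, but the deposited values are pooled within each line. Neither a replicate error nor a test between the lines can therefore be given, and all intervals below are 95% intervals of counting error only.

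The DoHH-2 table held 2033156 cDNA counts at 1179243 positions. GM01953 held 167197 counts at 78474 positions, so its values are less precise. Of 7 B-cell marker genes, 6 carried counts in DoHH-2 and 7 in GM01953, summing to 889 and 3971 counts per 1000000 total counts (CPM). CD74, the invariant chain of MHC class II, had the most counts of these markers in both lines, with 503 and 2147 CPM. CD22 had no count in DoHH-2, and MS4A1, which encodes CD20, had 13 counts there against 152 in GM01953. CD79B went the other way, with 48.7 CPM in DoHH-2 and 41.9 CPM in GM01953. Markers of T cells, myeloid cells and erythroid cells were at 0 in both lines, and EPCAM, an epithelial marker, had 2 counts in DoHH-2.

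hnRNPs coat nascent transcripts and guide splicing, export, stability and translation of the mRNAs they bind. hnRNP A1, A2/B1 and A3 share paired RNA recognition motifs, and hnRNP D, also called AUF1, binds AU-rich elements that control mRNA decay. hnRNP C binds uridine tracts, hnRNP F and H1 bind G-rich RNA, hnRNP K binds C-rich RNA through KH domains, hnRNP M binds GU-rich RNA, and hnRNP U is a scaffold-attachment protein of the nucleus. The proteins are therefore RNA-binding proteins themselves, and the data concern eIF4B on the mRNAs that encode them.

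The RNA around the nucleotides with the highest counts shows where eIF4B was cross-linked. Each sequence below is the spliced mRNA, 5′ to 3′, with 14 nt on each side of the named position. Capitals mark positions with at least 50% of the count of that position in the named cell line. Positions are on GRCh38. The first 4 are from 3′ UTRs and carry runs of uridine, and the next 3 are from 5′ UTRs. The HNRNPH1 position, with 18 counts, is the second highest of that mRNA, tied with a position in its 5′ UTR. The last sequence is from the highest GM01953 position of HNRNPA2B1.
HNRNPA1, DoHH-2, exon 11: aauguagauuuuuUUuuuugcaccccaug
HNRNPU, DoHH-2, exon 14: gugacuuuuUuuuUUUuuuaucacaacag
HNRNPK, DoHH-2, exon 17: caucuuuUuuUuuuUaucugcuucuguuu
HNRNPH1, DoHH-2, exon 14: uuuUuuuuuuuuuuUuucuuuaagaaaac
HNRNPA2B1, DoHH-2, exon 1: gagcagcggcaguuCuCacUacagcgcca
HNRNPC, DoHH-2, exon 3: ucuucagcuacauuUucggcuuugugaga
HNRNPC, GM01953, exon 3: uuugugagaaaccuUaccaucaaacacga
HNRNPA2B1, GM01953, exon 11: guuguuuuucccuuUuuuuccuucuuuuc

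The HNRNPA1 sequence lies at chr12:54284794-54284822 on the plus strand. The others lie on the minus strand, at chr1:244854153-244854181 for HNRNPU, chr9:83969294-83969322 for HNRNPK and chr5:179614773-179614801 for HNRNPH1. The HNRNPA2B1 sequences are at chr7:26200664-26200692 and chr7:26191199-26191227. The second HNRNPC sequence is at chr14:21234193-21234221, and the first is centred on chr14, position 21234227, and crosses an exon junction.

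eIF4B was bound to all of these mRNAs in DoHH-2. To count as bound, a gene needed more than 20 counts at positions with a false discovery rate (FDR) below 0.05. By this rule 10 of 10 members were bound in DoHH-2, where 33.3% of the coding genes with a count were. In GM01953, 7 of 10 were bound, against 8.34% of coding genes. With a stricter minimum of 50 counts, 3 members passed in GM01953 and 10 still did in DoHH-2. At the minimum of 20, HNRNPA3, HNRNPH1 and HNRNPM did not pass in GM01953. Together the members held 12187 DoHH-2 counts and 732 GM01953 counts, or 5994 and 4378 CPM. The amount of mRNA in the cells was not used here. More binding per mRNA and more mRNA therefore cannot be told apart in any bound call, level, ratio or share pooled over mRNAs, here or below.

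Per kilobase of mRNA, HNRNPA2B1 had the highest level of eIF4B binding among the members in both lines, with 360.5 CPM per kb in DoHH-2 and 287 in GM01953. The median coding gene with counts had 6.69 and 9.36 CPM per kb. HNRNPA3 was the lowest member in both lines, with 21.7 and 12.6 CPM per kb, and HNRNPA1 was next with 57.5 and 46.3. In DoHH-2 the other 7 members lay between 114 CPM per kb for HNRNPD and 168 for HNRNPM. In GM01953 they lay between 61.4 for HNRNPH1 and 174 for HNRNPC. In DoHH-2, HNRNPA3 thus stood above 80.2% of coding genes, HNRNPA1 above 92.8% and the other members above both of these shares.

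**Figure D1:**
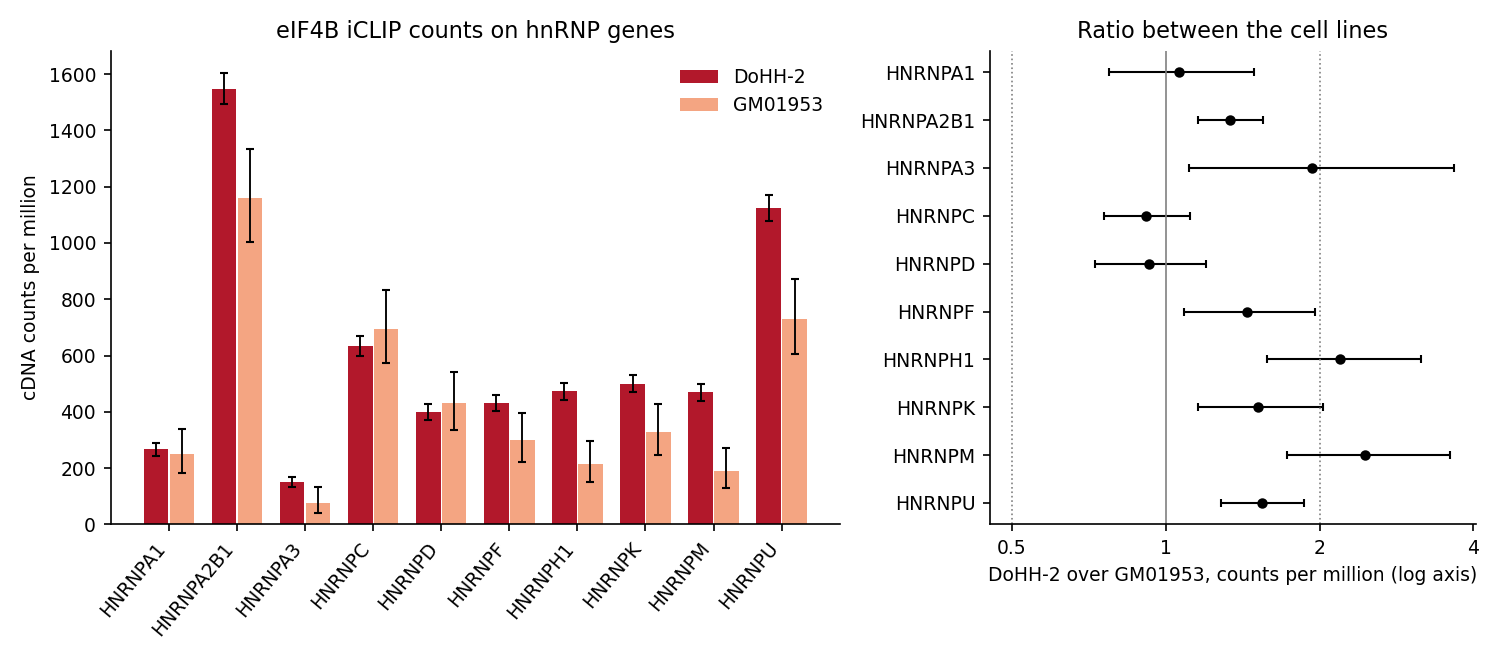
Left, cDNA counts (CPM) on each hnRNP gene in DoHH-2 and GM01953, with exact Poisson 95% intervals. Right, the ratio of the lines on a log axis with its exact 95% interval of counting error, where HNRNPH1 and HNRNPM lie above the dotted line at 2 and HNRNPC and HNRNPD lie below 1.

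Between the lines, the members' summed level was 1.37 times higher in DoHH-2 (interval 1.27 to 1.48). With positions in place of cDNAs the ratio was 1.09, and its interval of 0.980 to 1.21 included 1. Counted in cDNAs, the interval lay above 1 for 7 members and included 1 for HNRNPA1, HNRNPC and HNRNPD. Such intervals were not tallied over coding genes, so this count has no background and is not read as particular to the members. HNRNPM had 954 counts in DoHH-2 and 32 in GM01953, a level of 469 against 191 CPM and a ratio of 2.45 (1.72 to 3.61). HNRNPH1 had 962 and 36 counts, a level of 473 against 215 CPM and a ratio of 2.20 (1.58 to 3.16). These 2 members were at least 2-fold higher in DoHH-2, and 0 members were at least 2-fold higher in GM01953. Among coding genes with at least 20 counts in both lines together, 32.3% passed 2-fold in favour of DoHH-2 and 14.2% in favour of GM01953. Among those with at least 300 counts, as every member has, the shares were 24.6% and 4.52%. The members' count of 2 in 10 was therefore near the background. With only positions at an FDR below 0.05, 4 members passed 2-fold, HNRNPM at 4.64, HNRNPH1 at 3.20, HNRNPK at 2.48 and HNRNPU at 2.23, where 32.9% of the genes with at least 300 counts did. Over all positions the members' median ratio was 1.48, beside 1.34 for the genes with at least 300 counts.

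Among the A/B-type members, the intervals of the 3 ratios overlapped. HNRNPA2B1, with 3147 and 194 counts, stood at 1548 CPM in DoHH-2 and 1160 CPM in GM01953, a ratio of 1.33 (1.15 to 1.55). When positions were counted in place of cDNAs, this ratio turned to 0.869 (0.702 to 1.09). HNRNPA1, with 542 and 42 counts, stood at 267 and 251 CPM, a ratio of 1.06 (0.775 to 1.49). HNRNPA3, with 305 and 13 counts, had 150 and 77.8 CPM and a ratio of 1.93, which 13 counts leave between 1.11 and 3.67. With only positions at an FDR below 0.05 it was 1.06 (0.552 to 2.27), and with only positions in sequence found once it was 6.09 (2.06 to 29.7), from 3 GM01953 counts. HNRNPD, the AU-rich element binder, had 812 and 72 counts, or 399 and 431 CPM, and a ratio of 0.927 (0.728 to 1.20). At an FDR below 0.05 it turned to 1.38 (1.01 to 1.93).

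HNRNPC, with 1289 and 116 counts, was the other member with a higher value in GM01953, at 694 CPM against 634 CPM. Its ratio of 0.914 had an interval of 0.755 to 1.11. With positions in place of cDNAs it was 0.563 (0.431 to 0.749), and with only positions at an FDR below 0.05 it turned to 1.12 (0.911 to 1.40). HNRNPF had 876 and 50 counts, or 431 and 299 CPM, and a ratio of 1.44 (1.08 to 1.96). HNRNPK had 1015 and 55 counts, or 499 and 329 CPM, and a ratio of 1.52 (1.16 to 2.03). HNRNPU, whose mRNA is the longest of the set at 6867 nt, had 2285 and 122 counts, or 1124 and 730 CPM, and a ratio of 1.54 (1.28 to 1.86). The HNRNPU interval lay above 1 in every setting tried, but those of HNRNPF and HNRNPK did not. HNRNPF stood at 1.33 (0.999 to 1.80) when scaled to coding counts and at 1.32 (0.894 to 2.02) with positions in place of cDNAs, where HNRNPK stood at 1.15 (0.794 to 1.72).

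To ask where on these mRNAs eIF4B was found, counts were placed on the MANE Select transcript of each gene and split into 5 regions. The codon regions include the codon and 50 nt on either side. In DoHH-2, 10357 counts fell on the transcripts. The 5′ UTR took 16.8% of them (interval 16.1 to 17.5), the start codon region 8.44%, the CDS 35.2%, the stop codon region 4.17% and the 3′ UTR 35.4% (34.5 to 36.4). The coding genes without histone genes gave 8.37%, 9.39%, 43.9%, 5.66% and 32.7%. The members therefore held a larger share in the 5′ UTR and a smaller one in the CDS than these genes. Measured per length, the 5′ UTR regions carried 1463 counts per kb, the CDS 284 and the 3′ UTR 180.4.

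HNRNPA2B1 weighed on the 5′ UTR share, since it held 851 of the 1736 counts there. Without it the share was 11.5%. The median over members, which weights each mRNA equally, was 13.4%, and 7 of 10 members lay above the median coding gene at 3.49%. HNRNPA3 and HNRNPM have annotated 5′ UTRs of 6 and 24 nt, which fall in the start codon region and leave no 5′ UTR to count.

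In GM01953, 618 counts fell on the transcripts. The shares were 22.7% in the 5′ UTR (19.5 to 26.1), 19.6% at the start codon (16.6 to 22.9), 32.8% in the CDS, 2.91% at the stop codon and 22.0% over the 3′ UTR (18.9 to 25.4). The intervals did not overlap between the lines for the 5′ UTR, start codon and 3′ UTR. The 5′ UTR share was higher in DoHH-2 for 4 members, higher in GM01953 for 4 and 0 in both for 2, and its intervals overlapped at an FDR below 0.05, with 19.9% (19.0 to 20.8) and 24.02% (20.2 to 28.3). For 9 members, all but HNRNPH1, DoHH-2 had the larger 3′ UTR share, and the start codon share was higher in GM01953 for 8 members. Pooled, the coding genes without histone genes moved the same way, with 22.9% in the 3′ UTR and 12.8% at the start codon in GM01953. How many single coding genes did so was not counted, so the tallies of 9 and 8 members have no background.

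The members differed widely from each other. The 3′ UTR share ran from 20.9% for HNRNPM to 85.3% for HNRNPA3 in DoHH-2, and the CDS share from 4.37% for HNRNPA3 to 64.5% for HNRNPM. The HNRNPM 3′ UTR has 260 nt and that of HNRNPA3 has 4567 nt. A region was called dominant when it held at least 50% of the summed densities. In DoHH-2 the 5′ UTR was dominant in HNRNPA2B1 and HNRNPH1, that is in 2 of 10 members against 11.7% of coding genes. The start codon region was dominant in HNRNPA3 and HNRNPC, or 2 of 10 against 18.2%. The CDS, the stop codon region and the 3′ UTR were dominant in 0 members, where the shares of coding genes were 1.83%, 4.37% and 3.19%. The other 6 members had no dominant region.

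Of the 9 members with more than 20 counts on the transcript in GM01953, the 5′ UTR was dominant in HNRNPA2B1 and HNRNPD, against 23.8% of coding genes. The start codon region was dominant in HNRNPC and HNRNPH1, against 23.9%, and the CDS in HNRNPA1, against 7.51%. HNRNPA2B1 and HNRNPC were thus given the same region in both lines. The HNRNPH1 and HNRNPA1 calls in GM01953 rest on 23 and 29 counts. The HNRNPA1 CDS region had 11 of these, and 5 lay at a single position whose surrounding 31 nt occur 29 times in the genome.

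In windows of 50 nt, HNRNPA1 had the largest share of its counts in 1 window among the members. A window of 50 nt, from nt 1447 to 1496 of its mRNA, held 223 of 438 counts in DoHH-2, or 50.9%, and covers 1.34% of the mRNA. The window with the most counts in GM01953, nt 1455 to 1504, held 17 of 29. It contains a run of 11 uridines that starts 257 nt after the stop codon, shown above, and this run alone took 134 counts, or 30.6%, in DoHH-2. In GM01953 the run took 6 of 29 counts. The single highest HNRNPA1 nucleotide in DoHH-2, with 33 counts, was within it.

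The HNRNPU 3′ UTR showed the same feature in both lines. A run of 14 uridines that starts 273 nt after its stop codon took 139 of 2075 counts in DoHH-2, or 6.70%, and 22 of 109 in GM01953, or 20.2%. The highest DoHH-2 position, with 23 counts, lay in this run. In GM01953 a position 2 nt away had 10 counts, and so had a position at codon 6 in the start codon region, so that these 2 were the highest together. In HNRNPK, a run of 11 uridines 88 nt after the stop codon took 79 of 840 counts in DoHH-2 and 0 of 50 in GM01953, and one of 6 uridines at 16 nt took 49 and 2. In HNRNPH1, a run of 22 uridines 153 nt after the stop codon took 75 of 691 counts in DoHH-2 and 0 of 23 in GM01953. The highest HNRNPH1 position in DoHH-2, with 22 counts, lay in its CDS at codon 308, in a run of 8 uridines that took 28 counts. A count of 0 allows up to 3, by counting error only. In HNRNPH1 this is more than the DoHH-2 share of the run would give among 23 counts, so that a difference was not detectable at this depth. In HNRNPK it is less than that share would give among 50 counts. Both runs, however, were chosen as those with the most DoHH-2 counts in their 3′ UTRs. Their DoHH-2 shares are therefore high by selection, and no difference between the lines is drawn from either run.

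Over all members, runs of at least 6 uridines (UUUUUU or longer, on the mRNA strand) made up 1.66% of the 3′ UTR nucleotides. They held 771 of 3879 3′ UTR counts in DoHH-2, or 19.9% (18.7 to 21.2), and 51 of 141 in GM01953, or 36.2% (28.7 to 44.4). Over coding genes, such runs made up 1.14% of the 3′ UTR nucleotides in DoHH-2 and held 6.39% of the 3′ UTR counts, and 4.53% in GM01953. The member share was above the pooled coding gene share in 8 of 10 mRNAs in DoHH-2. The exceptions were HNRNPA2B1, with 1.90%, and HNRNPC, with 2.72%. How many single coding genes lie above the pooled share was not counted, so this tally has no background. HNRNPM, in whose short 3′ UTR such runs make up 10% of the nucleotides, had 43.5% of 209 counts, and HNRNPA1, in which they make up 1.18%, had 40.2% of 361. All 10 members have such a run in the 3′ UTR, as do 64.8% of the coding genes. The runs were picked out after the HNRNPA1 and HNRNPU positions had been seen. Without these 2 mRNAs the shares were 16.1% (14.8 to 17.5) in DoHH-2 and 25% (17.3 to 34.7) in GM01953. Without HNRNPA2B1 as well, which has 16 GM01953 counts at a single run position, they were 21.1% and 12.1% (5.97 to 22.9), the last from 7 of 58 counts.

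Over all positions, uridine was the most frequent cross-linked base. It took 50.4% of the members' counts in DoHH-2 and 48.4% in GM01953, against 28.9% of the bases of their mRNAs. Adenosine took 10.5% and 9.29% against 29.2%. UV light cross-links uridine more readily than other bases as a rule, and its part in these shares was not tested.

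HNRNPA2B1, HNRNPA3 and HNRNPC carried their densest window in the 5′ UTR or at the start codon in both lines. The first 50 nt of the HNRNPA2B1 mRNA held 469 of 2659 counts in DoHH-2, or 17.6%, and 13 of 174, or 7.47%, in GM01953. Its highest DoHH-2 position, with 38 counts, lies 101 nt before the start codon and had 6 counts in GM01953. In HNRNPC the densest window was nt 173 to 222 in both lines, from just before the start codon to its first codons. It held 285 of 1045 counts in DoHH-2, or 27.3%, and 30 of 92 in GM01953, or 32.6%. The highest DoHH-2 nucleotide of HNRNPC, with 59 counts, lies 34 nt before the start codon. The highest in GM01953, with 8 counts, lies 14 nt before it and had 27 counts in DoHH-2. In HNRNPA3 the first 50 nt held 22 of 252 counts in DoHH-2 and 6 of 12 in GM01953. In HNRNPK the densest DoHH-2 window was in the 5′ UTR, where nt 52 to 101 held 138 of 840 counts. In GM01953 the 5′ UTR window from nt 47 to 96 held 10 of 50 counts, and a single CDS position at codon 407 held as many. With windows of 30 nt the densest HNRNPK window in GM01953 was in the CDS, at nt 1361 to 1390.

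HNRNPD had its densest DoHH-2 window in the 3′ UTR and its densest GM01953 window in the 5′ UTR. There, nt 1612 to 1661 held 120 of 712 counts in DoHH-2, and nt 235 to 284 held 17 of 54 in GM01953. In HNRNPF, nt 1943 to 1992 held 74 of 799 counts in DoHH-2, and nt 84 to 133, in the 5′ UTR, held 11 of 46 in GM01953. With windows of 30 nt the densest HNRNPF window was in the 5′ UTR in both lines, at nt 111 to 140 and nt 104 to 133. The highest DoHH-2 positions of HNRNPD and HNRNPF were in the 3′ UTR, 276 nt after the first base of the stop codon in HNRNPD with 19 counts and 442 nt after it in HNRNPF with 20 counts. HNRNPA3 had most of its DoHH-2 counts in its long 3′ UTR, where the highest position held 8 of 305 counts, and its highest GM01953 position was the first nucleotide of the mRNA, with 3 of 13 counts. HNRNPM had counts over most of its CDS in DoHH-2, but its densest window of 50 nt was in the 3′ UTR. That window, nt 2328 to 2377, held 73 of 846 counts, or 8.63%. Per kb, the HNRNPM CDS carried 262 counts and its 3′ UTR region 843. In GM01953 a single position in exon 2 of HNRNPM, at codon 70, held 10 of 32 counts.

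Of the members' 369 positions in GM01953, 232, or 62.9%, also carried a count in DoHH-2, and 87.3% had one within 5 nt. Over the 1262 coding genes with at least 300 counts the shares were 54.7% and 79.6%. The highest positions often differed. In DoHH-2 the highest position was in the 3′ UTR for 7 of 10 members, a tally that was not made over coding genes. Of the 10 highest nucleotides, 8 had 0 counts in the shallower GM01953 table, as in 78.3% of these coding genes. In GM01953 the highest positions were spread. They lay in the 5′ UTR for HNRNPA3, HNRNPC and HNRNPD, in the CDS for HNRNPK and HNRNPM, in the 3′ UTR for HNRNPA2B1 and HNRNPH1, and off the MANE Select exons for HNRNPA1. Ties left HNRNPU between the 3′ UTR and the CDS, with 10 counts at each, and HNRNPF between the CDS and the 5′ UTR, with 5 at each. Whichever of the tied positions is taken, 4 of 10 had 0 counts in DoHH-2 although that table is deeper. This was so in 40.3% of the coding genes, so that both tallies of 0 counts, 8 and 4 of 10, were near the background. The 4 were HNRNPA2B1, whose uridine-rich 3′ UTR position shown above had 16 counts, HNRNPD with 13 counts 58 nt before the start codon, HNRNPK with 10 and HNRNPH1 with 7. Within 5 nt DoHH-2 had 1, 0, 1 and 1 counts at these places. Whether copies of a single cDNA remained among such counts was not tested.

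Of the members' counts, 15.02% in DoHH-2 and 15.6% in GM01953 lay off the MANE Select exons, where coding genes gave 21.1% and 22.8%. At an FDR below 0.05 the members' shares were 4.08% and 11.6%, and with exons of every transcript of the gene they were 5.25% and 3.42%. Over all positions in DoHH-2, 5.21% were in introns, 4.74% in exons of other coding transcripts, 4.28% in exons of other non-coding transcripts and 0.738% in exons of nonsense-mediated decay transcripts. HNRNPH1 had the largest share off the exons in both lines, with 28.2% and 36.1%. Most of it was in exons of other non-coding transcripts of the gene, which took 17.4% and 30.6% of its counts. The highest GM01953 position of HNRNPA1, with 8 of 42 counts, was in an exon of another coding transcript and had 1 count in DoHH-2.

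Several members have processed pseudogenes or near-identical copies, so that some reads could be placed at more than 1 locus. Positions whose surrounding 31 nt occur more than once in the genome held 39.9% of the DoHH-2 counts of HNRNPC, 28.1% of HNRNPK, 28.0% of HNRNPA1 and 27.2% of HNRNPA3. In GM01953 they held 10 of the 13 counts of HNRNPA3, 45.5% of those of HNRNPK, 33.6% of those of HNRNPC and 21.4% of those of HNRNPA1. Among the highest positions, those of HNRNPD in DoHH-2 and of HNRNPA3 and HNRNPK in GM01953 lie in words found 2 times. The other highest positions, with those of the printed uridine runs, lie in words found once. The words are genomic, so near an exon junction, as at the highest DoHH-2 position of HNRNPC, they include intron sequence. A copy of the spliced mRNA could be missed there. All HNRNPA1 positions were also listed under an overlapping non-coding gene, and the counts cannot be split between them.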

How the data were processed

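The authors deposited a cDNA count for every cross-link position. Reads were deduplicated with BBMap, demultiplexed with Je, mapped to GRCh38 with HISAT2, pooled within each cell line and counted with iCount. Versions are not given in the sources used here. The deposited FDR compares each position with permuted counts in its gene. The deposited sum around each position was not used. Positions were read as 0-based and are printed 1-based.

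Counts were summed over unique positions for rows bearing a member's symbol, divided by the total of the line, and placed on GENCODE release 44 MANE Select transcripts. Shares have Wilson and ratios exact Clopper-Pearson 95% intervals (scipy 1.17.1, pandas 2.3.3, pysam 0.24.0). They cover counting error only. Regions under 10 nt were given no density. Sequences are from GRCh38. The genes named are the 10 members, each with its highest position in both lines, and, of 22 other hnRNP genes, the 3 with the most counts per line and those past 2-fold. The values of 1 of these genes are not reported here. Members and lists were chosen with earlier results of these data known. The steps were tested on simulated data. Alternatives were other scaling totals, FDR-filtered positions, unique sequence, positions in place of counts, other codon widths, transcripts and minimums.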

Additional observations from a re-analysis of the deposited data

Results flagged for a closer look

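Counts were also found at loci named as HNRNPA1 pseudogenes, which the comparisons did not use. They came to 179 counts at 51 loci in DoHH-2 and to 9 counts at 5 loci in GM01953. The HNRNPA1 gene itself had 542 and 42 counts. These loci were singled out because they lie outside the main measurement, and no cause was tested.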

How the results depend on the processing

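No paired analysis was possible because each deposited table pools the replicates of a line. For the same reason no replicate could be left out, and the spread between replicates is unknown. GM01953 limits the precision, with 732 counts on the members. The members' summed ratio stayed above 1 in every setting tried. It was 1.81 with only positions at an FDR below 0.05, 1.26 when scaled to coding counts and 1.09 with positions in place of counts, where its interval of 0.980 to 1.21 included 1. With positions in place of counts HNRNPA2B1 turned to 0.869 (0.702 to 1.09) and HNRNPC stood at 0.563 (0.431 to 0.749). HNRNPA1, whose interval included 1 throughout, lay between 0.909 and 1.13. The FDR filter moved 9 of 10 member ratios out of the intervals given above, with all 10 then above 1, while scaling to coding counts moved 0. Restriction to sequence found once moved 1 of 10, HNRNPA3, to 6.09 (2.06 to 29.7), from 3 GM01953 counts, and its ratio was 1.06 at an FDR below 0.05. The number of members at least 2-fold higher in DoHH-2, 2 as reported, was 4 at an FDR below 0.05 and 4 in sequence found once, and 1 with positions in place of counts. The share of 3′ UTR counts in uridine runs was 16.1% in DoHH-2 and 25% in GM01953 without HNRNPA1 and HNRNPU, and 12.1% in GM01953 without HNRNPA2B1 as well, choices made after seeing the data. With a minimum of 50 counts, 3 members were bound in GM01953.

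For DoHH-2 the shares in the 5′ UTR, start codon, CDS and 3′ UTR were 19.9%, 9.83%, 32.4% and 33.6% at an FDR below 0.05, and 17.9%, 9.17%, 37.5% and 30.9% in sequence found once. With codon regions of 25 nt the 5′ UTR, start codon, CDS and stop codon shares were 19.8%, 3.90%, 37.6% and 2.52%. On the longest coding transcript the 5 shares were 18.2%, 7.25%, 36.6%, 4.62% and 33.4%. Without HNRNPA2B1, a choice made after seeing the data like each background of 300 counts and the one without histone genes, the 5′ UTR, start codon, stop codon and 3′ UTR shares were 11.5%, 9.08%, 5.13% and 38.3%. For GM01953 the start codon and CDS shares were 24.0% and 27.7% at an FDR below 0.05 and 14.9% and 37.2% on the longest coding transcript. With 25 nt the 5′ UTR, start codon, CDS and stop codon shares were 27.5%, 9.87%, 39.2% and 1.13%. The share off the exons fell to 4.08% in DoHH-2 and 11.6% in GM01953 at an FDR below 0.05 and to 5.25% and 3.42% when exons of every transcript counted, and was 16.7% in DoHH-2 in sequence found once. With 70% required, a dominant region was found in 1 member in DoHH-2 and 3 in GM01953. The causes were not tested.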

Other observations

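Of 22 other hnRNP genes, 18 were bound by the same rule in DoHH-2 and 11 in GM01953, and their summed ratio was 1.14 (1.06 to 1.23). HNRNPAB and HNRNPR were among the genes with the most DoHH-2 counts, with 1149 and 1032. HNRNPA0, PCBP1 and HNRNPUL1 had the most in GM01953, with 104, 72 and 71. Of the 21 genes with at least 20 counts, 7 were at least 2-fold higher in DoHH-2, near the 32.3% of all coding genes with at least 20 counts. HNRNPR, which acts with SYNCRIP in mRNA transport, had a ratio of 3.54 (2.36 to 5.54). TARDBP, which encodes TDP-43, had 2.46 (1.28 to 5.43) and HNRNPH3 2.26 (1.17 to 4.99). HNRNPH2 with 1 GM01953 count, PTBP2 with 3 and HNRNPLL with 2 had ratios of 8.06 (1.41 to 322), 2.44 (0.808 to 12.1) and 2.01 (0.529 to 17.1). RALY, a relative of hnRNP C, had 0.433 (0.314 to 0.610) and PCBP4, a KH-domain relative of hnRNP K, had 0.376 (0.209 to 0.726), so both were higher in GM01953.

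SR splicing factor genes, which encode the other main family of splicing regulators, had counts at 11 of 12 genes. All 11 were bound in DoHH-2, and 3 of them were in GM01953. Their summed ratio was 1.45 (1.30 to 1.63).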
